A study of Mus musculus with 2 samples.

Results

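The genes described here encode subunits of respiratory complexes II, III, IV and V and cytochrome c, measured in single cells of mouse pancreatic islets. They were chosen by gene symbol: Sdha to Sdhd for complex II, Cyc1, mt-Cytb and symbols beginning Uqcr for complex III, mt-Co and the Cox4i to Cox8 families for complex IV, mt-Atp6, mt-Atp8 and symbols beginning Atp5 for complex V, and Cycs. A gene also needed at least 10 UMIs over both libraries, a UMI (unique molecular identifier) being 1 captured transcript. This gave 54 of the 27998 genes listed, 16562 of which pass the same minimum. Of 55 symbols that fitted, Cox8c fell short with 0 UMIs in the transgenic and 1 in the wild type library, and just inside stood Cox8b, with 2 and 8 UMIs, and Cox7b2, with 8 and 7. Complex II has 4 of the genes, complex III 10, complex IV 20, complex V 19, and cytochrome c is 1. The nuclear genome encodes 48 and mitochondrial DNA 6. Cox7a2l, a factor of respiratory supercomplexes, and Atp5s and Atp5sl, which are not structural subunits of the enzyme, entered through their symbols.

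The samples were 1 islet library of βTG miR-503 mice, which carry a miR-503 transgene in beta cells, and 1 of wild type mice. Both were C57BL/6 at postnatal day 70 (10 weeks), dissociated with trypsin and captured with 10x Chromium 3′ v2 chemistry. The series title links miR-503 released with insulin granules to insulin resistance and beta cell senescence. Which promoter drives the transgene, the number and sex of the mice and whether they were pooled are not given in the sources used here. Because each genotype has 1 library, no difference between genotypes has a replicate check, so no p-value is given. All intervals are 95% intervals that cover counting error only.

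Complex II oxidises succinate and passes the electrons to ubiquinone. Complex III hands them to cytochrome c, and complex IV from there to oxygen. Complex V, ATP synthase, uses the proton gradient that complexes I, III and IV build, and the ATP it makes closes the potassium channels that start insulin release in beta cells. Complex II is encoded by nuclear genes alone, whereas complexes III, IV and V combine nuclear subunits with a catalytic or proton-conducting core encoded in mitochondrial DNA, so each of these needs transcripts from both genomes.

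A few sequences carry the measurements. Complex IV subunit 6a has a form found in most tissues, Cox6a1, and one known from heart and skeletal muscle, Cox6a2, and the shares of these forms differed most between the islet cell classes. The last 120 coding bases of each, from GENCODE vM21 transcripts, are shown with the 33 bases at which they differ in capitals.
Cox6a2: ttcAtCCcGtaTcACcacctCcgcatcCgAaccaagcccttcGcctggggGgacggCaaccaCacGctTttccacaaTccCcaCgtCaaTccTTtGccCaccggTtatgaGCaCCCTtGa
Cox6a1: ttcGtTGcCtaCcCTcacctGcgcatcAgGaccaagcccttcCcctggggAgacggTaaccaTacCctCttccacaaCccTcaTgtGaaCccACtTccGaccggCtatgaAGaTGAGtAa
Over all 293 aligned coding bases the pair was 64.8% identical, and the longest run they shared was 12 bases. Cox7a1 and Cox7a2 were 64.3% identical, Cox4i2 and Cox4i1 69.8%, Cox6b2 and Cox6b1 65.4%, and Atp5g1 and Atp5g2 76.7%, and the longest run shared by any of these pairs was 21 bases. How reads shared with processed pseudogenes, or with nuclear copies of mitochondrial DNA, were counted is not stated in the labels.

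The mitochondrial genes mt-Atp8 (chrM:7766-7969) and mt-Atp6 (chrM:7927-8607) share 43 bases on the mm10 plus strand, chrM:7927-7969, and a read that lies in them cannot be given to either gene.
mt-Atp8 and mt-Atp6 overlap: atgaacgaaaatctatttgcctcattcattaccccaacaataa
These bases are 21.1% of the 204 bases of mt-Atp8, whose values are therefore less certain than those of the other mitochondrial genes.

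The transgene makes miR-503, which pairs with targets through its seed, bases 2 to 8, here in capitals, as annotated by RefSeq on GRCm38.p6 at chrX:53054027-53054049 on the minus strand. The sites are shown because they are the matches the members hold.
miR-503-5p: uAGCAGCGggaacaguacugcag
Sdhc site: agctttcCGCTGCTttctgct
Cox6b2 site: acttgagCGCTGCTcccctgg
The 7-base match CGCTGCT, in capitals, was searched in the longest annotated 3′ UTR of each gene on the gene's strand. It stood in 2 of the 47 members with an annotated 3′ UTR, or 4.26%, and in 5.09% of 11142 genes detected in beta-like cells. Detected here and for the promoters below means at least 100 UMIs in beta-like cells over both libraries. The members were not held to that limit, and Cox6b2, with 18 transgenic and 17 wild type UMIs there, falls short of it. The median 3′ UTR measured 203 bases in the members and 1204 bases in the detected genes. Mature microRNAs carry no poly(A) tail and are not counted by 3′ capture, so the level of miR-503 itself was not read here.

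Promoter windows from RefSeq, GRCm38.p6, were searched from 250 bases before to 50 after each start, and 35 of the 48 nuclear members matched by symbol. The motif of NRF1, a regulator of respiratory genes, spelled GCGC, any 2 bases and GCGC again, and searched on both strands, stood in 10 of the 35 (28.6%), in 15.8% of 9146 genes detected in beta-like cells and in 6.997% of all 27025 genes. ETS motifs (CCGGAAG, both strands) stood in 12 members (34.3%), against 20.5% of detected and 9.93% of all genes. ERR motifs (AAGGTCA, both strands), bound by estrogen-related receptors, stood in 5 members (14.3%), against 3.72% of detected and 5.38% of all genes. YY1 motifs (AAGATGGCG, both strands) stood in 2 members (5.71%), against 3.85% of detected and 1.64% of all genes. The members' shares thus stood above those of detected genes for each of these motifs, on 2 to 12 members, which was not tested. The 35 members include Cox6b2, Cox7b2 and Cox8b, which fall short of the limit for detected genes. TATAAA on the gene's strand stood in 1 member (2.86%), the muscle form Cox8b, against 5.07% of detected and 9.77% of all genes. A match is a description of letters and no evidence of binding, and the NRF1 match of Atp5g3 does not lie wholly within the bases shown. The 250 bases before the start of Atp5l (chr9:44920743-44920992) and Atp5g3 (chr2:73911327-73911576), both read on the minus strand, are shown as 2 of the 5 windows with an ERR match, with the ETS motif (CTTCCGG as read here) and the ERR motif (TGACCTT as read here) in capitals.
Atp5l: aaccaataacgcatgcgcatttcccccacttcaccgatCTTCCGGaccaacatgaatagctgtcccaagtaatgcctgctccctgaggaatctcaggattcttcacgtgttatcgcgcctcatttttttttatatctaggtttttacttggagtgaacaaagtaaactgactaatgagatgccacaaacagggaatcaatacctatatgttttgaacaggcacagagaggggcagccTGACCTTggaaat
Atp5g3: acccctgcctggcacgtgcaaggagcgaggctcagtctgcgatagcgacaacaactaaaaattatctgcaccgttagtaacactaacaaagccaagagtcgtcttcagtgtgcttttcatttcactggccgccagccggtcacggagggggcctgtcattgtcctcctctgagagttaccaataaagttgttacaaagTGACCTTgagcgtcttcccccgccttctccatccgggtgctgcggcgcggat

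The libraries held 4158 transgenic and 4540 wild type barcodes with 109243270 and 104677537 UMIs, of which 3977 and 4339 cells were kept. The 2 libraries shared 25 barcode sequences. Cells were sorted into classes by the share of their UMIs from hormone genes. Beta-like cells (insulin, Ins1 and Ins2) numbered 2656 transgenic and 3353 wild type, alpha-like cells (glucagon, Gcg) 591 and 383, delta-like cells (somatostatin, Sst) 176 and 94, and gamma-like cells (pancreatic polypeptide, Ppy) 103 and 87. Markers that the sorting did not use followed the names in most cases, with exceptions: Aqp3 was at 0 in gamma-like cells of both libraries, Ghsr had 4 transgenic and 8 wild type UMIs in delta-like cells, and Mafa had 11 and 10 UMIs in beta-like cells. Levels are CPM (UMI counts scaled to a common total), adjusted by TMM over the 8 class and library sums, because insulin took 59.9% of transgenic and 49.7% of wild type beta-like UMIs. Scaling by total UMIs instead lowers every transgenic over wild type log2 ratio in beta-like cells by 0.34. Levels are not compared between genes, since 3′ capture differs by gene. A class sum alone does not tell a lower level in each cell from fewer cells that hold the transcript. Shares of cells that held a UMI are given for Cox6a2, and the spread over cells for the complex IV share.

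The 6 mitochondrially encoded members stood apart from the nuclear ones between cell classes. They encode cytochrome b of complex III (mt-Cytb), the catalytic core of complex IV (mt-Co1, mt-Co2, mt-Co3) and the proton channel side of ATP synthase (mt-Atp6, mt-Atp8). With TMM scaling all 6 were lower in the alpha-, delta- and gamma-like classes than in beta-like cells of both libraries, while most nuclear members lay within 1.5-fold of the beta-like level. A member was called for a class where it differed by at least 1.5-fold in the same direction in both libraries, with at least 100 UMIs over the compared classes in each library.

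For mt-Co1 (chrM:5328-6872) the alpha-like sums stood at −0.99 log2 units relative to beta-like cells in the transgenic and −1.17 in the wild type library, the delta-like sums at −1.26 and −1.49 and the gamma-like sums at −0.88 and −1.01. For mt-Co2 the alpha-like ratios were −0.85 and −1.07, the delta-like −1.36 and −1.65 and the gamma-like −0.79 and −0.94. The levels of mt-Cytb were 2027 transgenic and 2146 wild type in alpha-like cells, 1647 and 1747 in delta-like cells, 2038 and 2277 in gamma-like cells, and 3319 and 3985 in beta-like cells. The beta-like level was the highest and the delta-like level the lowest in both libraries, and between them the transgenic alpha- and gamma-like ratios for mt-Cytb, −0.71 (−0.73 to −0.69) and −0.70 (−0.75 to −0.66), did not separate. In alpha-like cells 5 of 6 mitochondrial members were called lower and mt-Atp8, at −0.39 and −0.73, was not; 18.4% of the 11028 genes tested were called lower there. In delta-like cells 6 of 6 were called lower, against 19.0% of 10825 genes, and in gamma-like cells 5 of 6, again without mt-Atp8, against 17.9% of 10791 genes. These directions depend on the scaling: total UMIs, which insulin fills in beta-like cells, raise the transgenic ratios of the alpha-, delta- and gamma-like classes by 0.73, 1.21 and 0.49 and the wild type ratios by 0.37, 0.91 and 0.26. Under total UMIs the transgenic ratios of mt-Cytb, mt-Co3 and mt-Atp8 in alpha-like cells stood above 0, at 0.02, 0.06 and 0.34. So did those of mt-Cytb, mt-Atp6 and mt-Atp8 in delta-like cells, at 0.19, 0.17 and 0.12, and of mt-Atp8 in gamma-like cells, at 0.07, while the wild type ratios of all 6 stayed below 0 in each class.

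**Figure D1:**
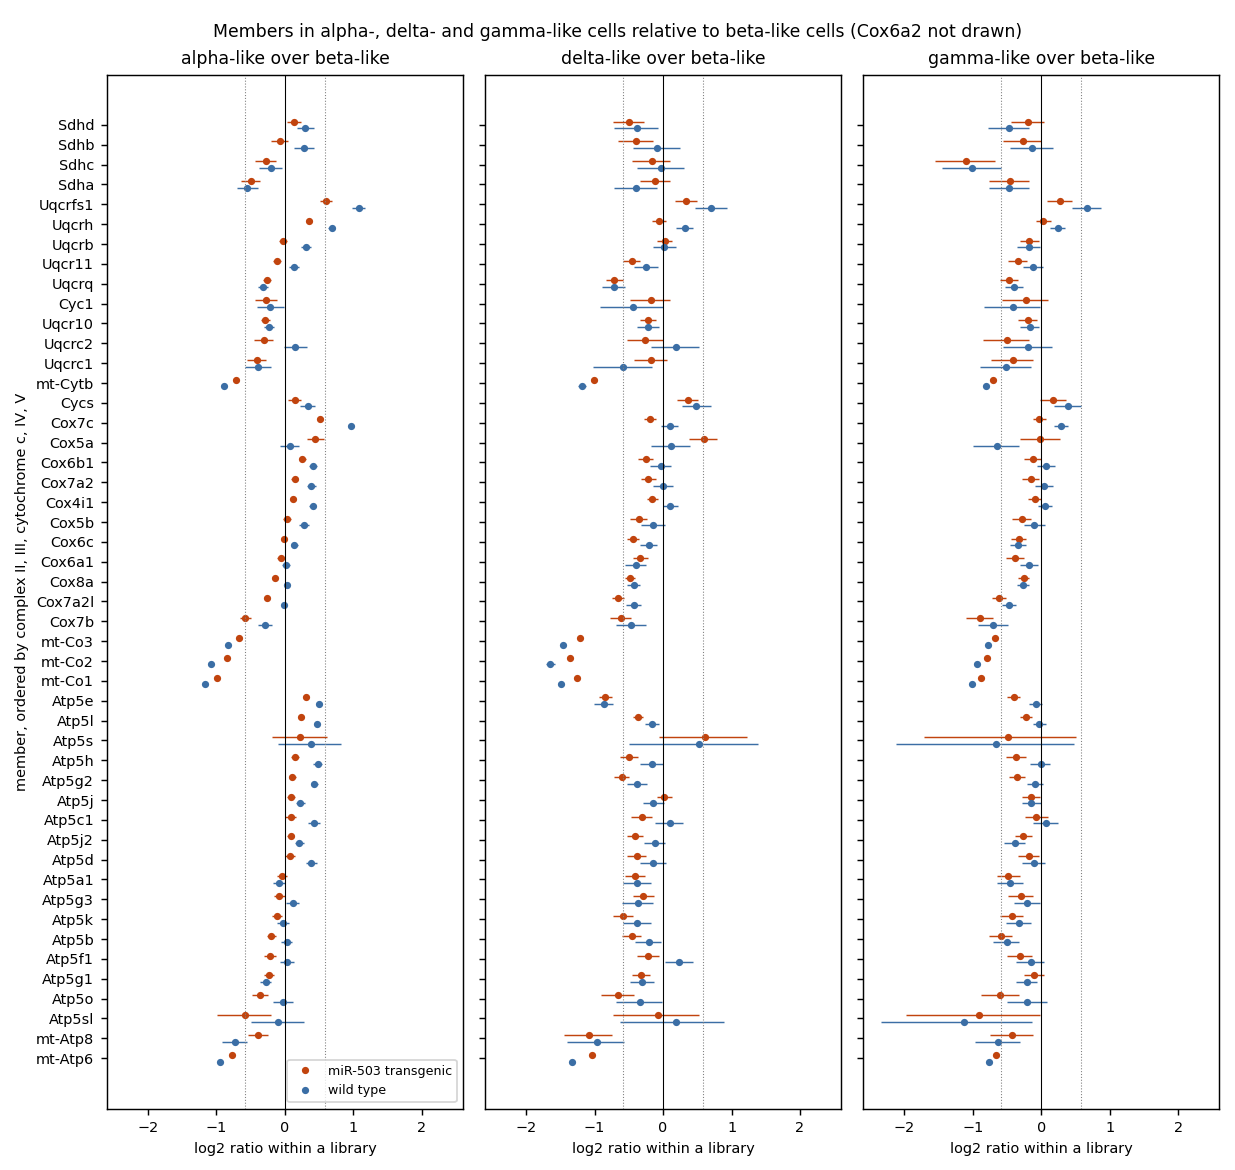
Log2 ratio of each member's TMM-scaled level in alpha-, delta- and gamma-like cells (left, middle and right panel) over beta-like cells, in the transgenic library (orange) and the wild type library (blue), with 95% exact intervals covering counting error only. Members tested in alpha-like cells are drawn, ordered by complex, without Cox6a2, whose ratio was −3.25 or lower in each class and library; dotted lines mark 1.5-fold, and mt-Co1, mt-Co2, mt-Co3, mt-Cytb and mt-Atp6 lie left of the lower line in both libraries and all panels.

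Few nuclear members were called. In alpha-like cells 1 of 43 tested (2.33%) was called higher, against 9.87% of all genes, and 1 lower, against 18.4%. The gene called higher was Uqcrfs1 (chr13:30540308-30545362), the Rieske iron-sulfur protein of complex III, with levels of 159 transgenic and 150 wild type in alpha-like cells and 105 and 71.0 in beta-like cells, or 0.60 and 1.07 on the log2 scale. Its ratio was 0.34 and 0.71 in delta-like and 0.27 and 0.66 in gamma-like cells, above 0 in each but not called. Uqcrfs1 thus stood lowest in beta-like cells of both libraries. Its call in alpha-like cells was lost with non-hormone UMIs and with 50% dominance, where the transgenic ratio was 0.46 and 0.54. Alpha-like cells were highest under TMM, and under total UMIs delta-like cells were, at 1.54 transgenic and 1.62 wild type against 1.33 and 1.44 in alpha-like cells. Cox7c, a small complex IV subunit, had levels of 687 and 753 in alpha-like and 483 and 384 in beta-like cells, at 0.51 and 0.97, with the transgenic ratio short of 1.5-fold. Sdha, the flavoprotein of complex II, lay at −0.50 and −0.55 in alpha-like cells, just inside the limit.

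No nuclear member was called higher in delta- or gamma-like cells, against 8.52% and 7.34% of all genes. In delta-like cells 3 of 44 (6.82%) were called lower, against 19.0% of all genes. They were Cox6a2, Atp5e, the epsilon subunit of ATP synthase, at −0.85 and −0.87, and Uqcrq, a small complex III subunit, at −0.71 and −0.72. In gamma-like cells 4 of 43 (9.30%) were called lower, against 17.9% of all genes. They were Cox6a2, the complex II membrane anchor Sdhc at −1.10 and −1.01, Atp5sl at −0.91 and −1.12, and Cox7b, a complex IV subunit, at −0.90 and −0.70. Under total UMIs the transgenic delta-like ratios of Atp5e and Uqcrq were 0.36 and 0.49. Cytochrome c itself (Cycs) had levels of 121 and 124 among alpha-like cells, 141 and 138 among delta-like cells, 124 and 129 among gamma-like cells and 110 and 98.8 among beta-like cells, higher in each class than in beta-like cells by less than 1.5-fold. The median over nuclear members was −0.05 transgenic and 0.14 wild type for the alpha-like class, −0.31 and −0.16 for the delta-like class and −0.30 and −0.19 for the gamma-like class. The medians over all genes were −0.10 and −0.12, −0.16 and −0.20, and −0.17 and −0.18.

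The share of a complex's UMIs that came from mitochondrial DNA uses no scaling between libraries or classes. For complex IV it was 68.8% transgenic and 69.1% wild type in alpha-like cells, 68.3% and 68.2% in delta-like cells, 73.9% and 76.1% in gamma-like cells, and 79.9% and 84.1% in beta-like cells. Beta-like cells had the highest share for each of complexes III, IV and V in both libraries. For complex III the shares were 53.4% and 54.0% in alpha-like cells, 51.9% and 53.9% in delta-like cells, 56.8% and 60.03% in gamma-like, and 65.0% and 71.2% in beta-like cells. For complex V they were 44.6% and 46.3%, 49.0% and 49.6%, 53.3% and 57.1%, and 59.3% and 67.0% in the same order of classes.

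In size, and over all cells of a class, the differences between genotypes were largest in beta-like cells. There the transgenic share was lower by 4.20 percentage points for complex IV (interval of transgenic minus wild type −4.29 to −4.11), with differences of −6.21 for complex III (−6.44 to −5.98) and −7.64 for complex V (−7.81 to −7.48). In beta-like cells matched between libraries on insulin share they were −1.77, −3.17 and −2.95 for complexes IV, III and V, smaller than in gamma-like cells. The gamma-like differences were −2.25 (−2.98 to −1.52), −3.27 (−4.93 to −1.60) and −3.81 (−4.97 to −2.66) for complexes IV, III and V. In alpha-like cells they were −0.28 (−0.65 to 0.10), −0.55 (−1.35 to 0.25) and −1.67 (−2.21 to −1.14), and in delta-like cells 0.03 (−0.87 to 0.94), −2.02 (−3.83 to −0.20) and −0.52 (−1.82 to 0.78). The interval of the complex IV difference includes 0 in alpha- and delta-like cells. Counted per nuclear complex IV UMI, beta-like cells had 3.97 mitochondrial UMIs in the transgenic and 5.28 in the wild type library, and alpha-like cells 2.21 and 2.24. The cells overlapped widely: the beta-like median of the complex IV share was 79.2% in transgenic cells, with 10% of cells below 72.1% and 10% above 86.3%, and 84.1% in wild type cells, with the same limits at 76.4% and 89.9%. The median share of all UMIs from mitochondrial genes was 2.03% in transgenic and 3.28% in wild type beta-like cells. In alpha-like cells it was 2.096% and 2.20%. This share counts the members' own UMIs, and insulin UMIs lie in its total, so it is not a separate measure of mitochondrial content. Its part in the result was not tested.

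**Figure D2:**
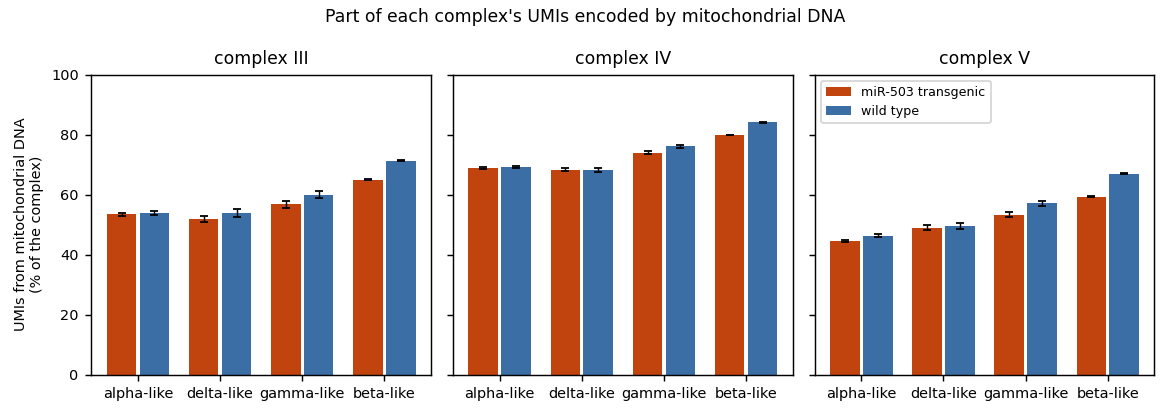
Bars show the share of the UMIs of complexes III, IV and V that came from mitochondrially encoded subunits, in percent, by cell class, in the transgenic library (orange) and the wild type library (blue), with 95% exact binomial intervals covering counting error only. For complex IV the alpha- and delta-like bars of both libraries reach 68.2% to 69.1%, and the beta-like bars reach 79.9% in the transgenic and 84.1% in the wild type library.

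Cox6a2 (chr7:128205435-128206387, minus strand) was the member that separated the classes most. Its share of all Cox6a UMIs was 1.44% transgenic (1.05 to 1.91) and 0.91% wild type (0.56 to 1.41) in alpha-like cells, 0.84% (0.31 to 1.83) and 1.40% (0.46 to 3.24) in delta-like cells, and 1.55% (0.67 to 3.03) and 1.93% (0.93 to 3.51) in gamma-like cells. In beta-like cells it was 15.6% (15.1 to 16.0) and 14.2% (13.7 to 14.6), so no interval of another class came near. On the log2 scale its level lay at −3.72 and −4.15 for alpha-like, −4.77 and −3.94 for delta-like and −3.93 and −3.25 for gamma-like cells relative to beta-like cells. The low share outside beta-like cells was of the size seen in cells marked as macrophages, 1.69% (0.35 to 4.85) over 46 transgenic and 1.21% (0.25 to 3.49) over 68 wild type cells, on 3 Cox6a2 UMIs in each library. In cells marked as endothelial it was 0 of 112 Cox6a UMIs in the transgenic library and 0.73% in the wild type library. By cells, 7.45% of transgenic and 5.22% of wild type alpha-like cells held a Cox6a2 UMI, 6.52% and 4.41% of macrophage-marker cells, and 49.6% and 42.4% of beta-like cells. The median UMIs per cell behind these were 14495 and 15002, 10248.5 and 10703.5, and 29009 and 23042, so the alpha-like share is not told from the level in macrophage-marker cells and is not read as expression. Alpha-like cells held 46 transgenic and 20 wild type Cox6a2 UMIs, and at the Cox6a2 to insulin ratio of beta-like cells they would hold 17.4 and 14.3, a difference beyond counting error in the transgenic library alone.

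Among beta-like cells Cox6a2 was unevenly spread. It was at 0 in 1338 of 2656 transgenic and 1931 of 3353 wild type cells, and 31 and 53 cells held 10 or more UMIs, up to 39 and 27. The tenth of cells with the most Cox6a2 UMIs held 48.8% and 56.8% of them. The variance over the mean of UMIs per cell was 3.52 and 4.49 for Cox6a2 and 2.002 and 1.98 for Cox6a1, whose mean is higher. Between genotypes its beta-like level was 63.4 transgenic and 55.5 wild type, at 0.19 (0.12 to 0.26), too small a difference to be called under the limit given below for genotypes. Total UMIs, which lower this ratio by 0.34, put it below 0.

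**Figure D3:**
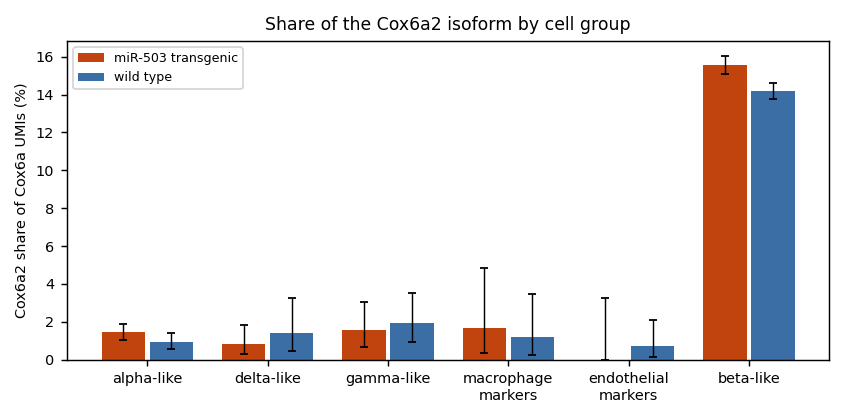
Bars show the Cox6a2 share of all Cox6a UMIs, in percent, in the endocrine classes and in cells marked as macrophages or endothelial cells, in the transgenic library (orange) and the wild type library (blue), with 95% exact binomial intervals covering counting error only. Beta-like cells stand at 15.6% in the transgenic and 14.2% in the wild type library, and the alpha-, delta- and gamma-like classes lie between 0.84% and 1.93%.

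The other tissue forms were rare in endocrine cells. Cox7a1 (chr7:30184144-30186078), the muscle form of subunit 7a, had 10 transgenic and 4 wild type UMIs among alpha-like cells, 11 and 6 among delta-like cells, 1 and 2 among gamma-like cells and 89 and 226 among beta-like cells. Per 1000 cells this was 16.9 and 10.4, 62.5 and 63.8, 9.71 and 23.0, and 33.5 and 67.4, so wild type beta-like cells and delta-like cells of both libraries held similar amounts, although delta-like cells had fewer UMIs each (medians of 9365 and 8806). As a share of Cox7a UMIs it made 0.511% in transgenic and 1.20% in wild type beta-like cells. Cox4i2, a form known from lung and low oxygen, had 48 transgenic and 131 wild type UMIs in cells marked as endothelial, or 21.9% and 18.7% of Cox4i UMIs there. In cells marked as stellate, only 3 in each library, it had 46 and 9 UMIs, or 60.5% and 21.4%. It had 7 UMIs, all in 1 cell, and 1 UMI in alpha-like cells, 0 in delta- and gamma-like cells of both libraries, and 8 and 17 in beta-like cells. Cox6b2, known from testis, had 19 and 3 UMIs in alpha-like and 18 and 17 in beta-like cells. In beta-like cells Cox7b2, another testis form, had 6 and 5, and the muscle form Cox8b had 0 and 7. The genes Atp5g1, Atp5g2 and Atp5g3 encode the same mature c-ring subunit of ATP synthase. Atp5g2 gave the most of their UMIs in each class, 57.2% and 57.4% in alpha-like and 52.4% and 48.1% in beta-like cells, and Atp5g1 gave 23.7% and 23.3% in alpha-like and 27.5% and 31.9% in beta-like cells, so their shares differed between genotypes in beta-like cells more than in alpha-like cells.

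Within beta-like cells the genotypes were compared member by member. A member was called where it differed by at least 0.32 log2 units with at least 100 UMIs over both libraries, which 44 nuclear and all 6 mitochondrial members had. Of the nuclear members 6 were called higher in transgenic cells (13.6%), against 11.2% of the 12034 genes tested, and 2 lower (4.55%), against 12.3%. The share called higher was therefore near that of all genes. Below the calls, 36 nuclear members stood above 0 and 8 below, with a median of 0.18, beside −0.02 for all genes.

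By role, the 2 catalytic subunits of complex II pointed apart with TMM scaling. Sdhb, its iron-sulfur protein, had levels of 67.7 transgenic and 54.5 wild type, at 0.31 (0.25 to 0.38), and Sdha had 73.6 and 84.0, at −0.19 (−0.25 to −0.13). The membrane anchors Sdhd, 90.2 and 79.4, and Sdhc, 49.96 and 55.2, lay at 0.18 and −0.14. None was called, and the summed complex stood at 0.04. Under total UMIs Sdhb stood at −0.03 and Sdha at −0.53, so their opposite signs depend on the scaling.

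In complex III, 8 of 9 nuclear members stood above 0 and 2 were called. Uqcrfs1, with 5539 transgenic and 4756 wild type UMIs, had levels of 105 and 71.0, or 0.56 (0.50 to 0.61), the highest of the nuclear members. The core protein Uqcrc2 had levels of 59.0 and 44.7, at 0.40 (0.33 to 0.47). Uqcrc1, the other core protein, lay at 0.31, Cyc1, which carries the haem of cytochrome c1, at 0.17, and the small subunits Uqcrh at 0.14, Uqcr10 at 0.02 and Uqcrq at −0.04. The differences thus varied in size within a complex whose subunits assemble in fixed proportion. Cytochrome c stood at 0.15, with 110 and 98.8.

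In complex IV, 10 of 13 tested nuclear members stood above 0. Cox7c was called higher, with levels of 483 transgenic and 384 wild type, at 0.33 (0.31 to 0.36). Cox5a, a nuclear subunit on the matrix side, was called lower, with 54.4 and 69.6, at −0.35 (−0.42 to −0.29), and Cox7a1 lower, with 1.68 and 3.37, at −1.01 (−1.38 to −0.65). Cox8a, with 822 and 821, did not differ beyond counting error, and Cox4i1, with 535 and 472, lay at 0.18. The catalytic subunits mt-Co1, mt-Co2 and mt-Co3 had levels of 7699.8, 3571 and 6859 in transgenic and 9284, 4518 and 8355 in wild type cells. They lay at −0.27, −0.34 and −0.28, and mt-Co2 was the 1 of 6 mitochondrial members called lower (16.7%), with an interval of −0.35 to −0.33.

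In complex V, 15 of 17 nuclear members stood above 0 and 3 were called higher. These were Atp5o, which joins the stalk to the catalytic head, with 91.8 transgenic and 68.7 wild type, at 0.42 (0.36 to 0.48); Atp5b, the catalytic beta subunit, with 248 and 195, at 0.35 (0.31 to 0.38); and Atp5c1, the rotating gamma subunit, with 171 and 135, at 0.34 (0.30 to 0.38). Atp5a1, which forms the head with Atp5b, lay at 0.11. The c-ring genes Atp5g2, Atp5g3 and Atp5g1 lay at 0.22, 0.10 and −0.12, on both sides of 0 although they make 1 protein. Total UMIs, which lower each ratio by 0.34, put all of them below 0. Against these, mt-Atp6 had 6354 transgenic and 7757 wild type, at −0.29, and mt-Atp8 had 59.9 and 72.4, at −0.28. In complex III mt-Cytb stood at −0.26, so all 6 mitochondrial members lay within a narrow band below 0.

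**Figure D4:**
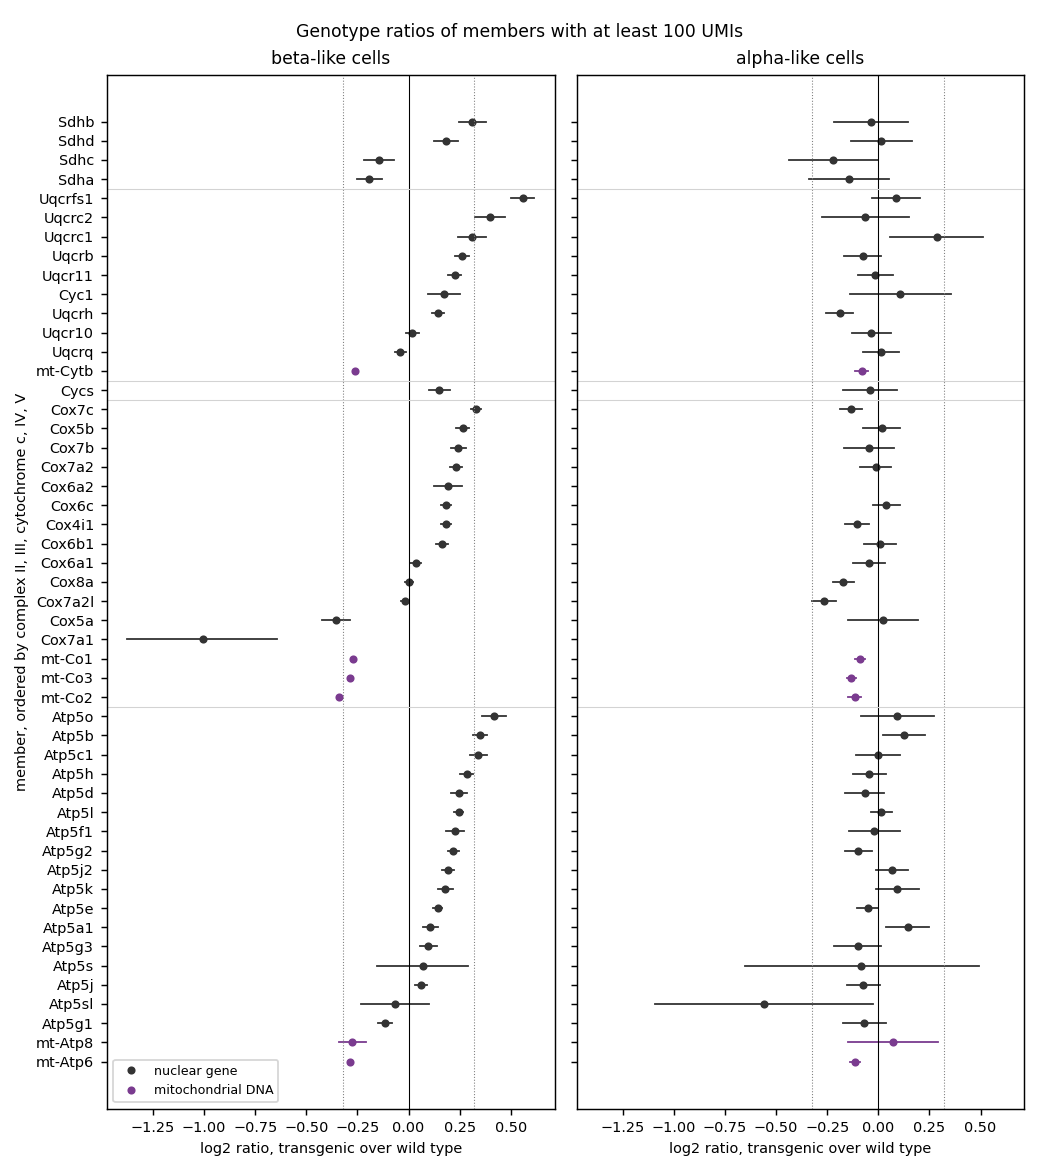
Log2 ratio of transgenic over wild type TMM-scaled level for each member with at least 100 UMIs, in beta-like cells at left and alpha-like cells at right, with 95% exact intervals covering counting error only and dotted lines at 0.32 log2 units on either side of 0. In beta-like cells 36 of 44 nuclear members lie above 0 and the 6 mitochondrially encoded ones, in purple, lie between −0.34 and −0.26; in alpha-like cells 27 of 42 nuclear members lie below 0.

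The sign of the nuclear members was not stable to how cells and counts were scaled. Under total UMIs, 5 stood above and 39 below 0, with a median of −0.16, and the mitochondrial median was −0.62. Among beta-like cells matched between libraries on the share of insulin, 9 stood above and 35 below 0, with a median of −0.08. There 1 nuclear member was called higher. None of the 6 mitochondrial members was called lower, with all 6 still below 0 at a median of −0.25. The share of all genes called in these matched cells is not given here. The gap between the nuclear and mitochondrial medians, which no scaling can alter, was 0.46 over all beta-like cells, 0.34 in cells with at most 5% mitochondrial UMIs and 0.18 in the insulin-matched cells.

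The members were therefore read along insulin share as well, in 10 bins of beta-like cells of equal size over both libraries. Insulin took 10.2% to 37.6% of UMIs in the lowest bin, with 64 transgenic and 537 wild type cells, and 65.5% to 77.8% in the highest, with 498 and 103. The mitochondrial share of complex IV UMIs was 83.2% in transgenic and 87.5% in wild type cells of the lowest bin, and 77.1% and 79.9% in the highest. In each of the 10 bins the transgenic share was the lower one, with differences of −4.29 to −0.84 percentage points. Nuclear members took 147 transgenic and 133 wild type UMIs per 10000 outside the hormone genes in the lowest bin, and 200.4 and 204 in the highest, with transgenic cells higher in 5 bins and lower in 5. Mitochondrial members took 468 and 593 in the lowest and 417 and 505 in the highest, and the transgenic value was lower in all 10 bins, with differences of −124 to −39.6. The highest bin thus held more nuclear and fewer mitochondrial member UMIs per 10000 than the lowest in both libraries, and more transgenic than wild type cells. The Cox6a2 share was 8.90% transgenic and 12.8% wild type in the lowest bin and 18.2% and 22.8% in the highest. The transgenic share was thus the lower one in both, as in most of the bins, although it was the higher one over all beta-like cells. The median mitochondrial share of all UMIs was 3.78% and 5.10% in the lowest bin and 1.48% and 1.82% in the highest. That share again counts the members' own UMIs, with insulin in its total, so it is not independent of these bins. Its part in the result was not tested.

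**Figure D5:**
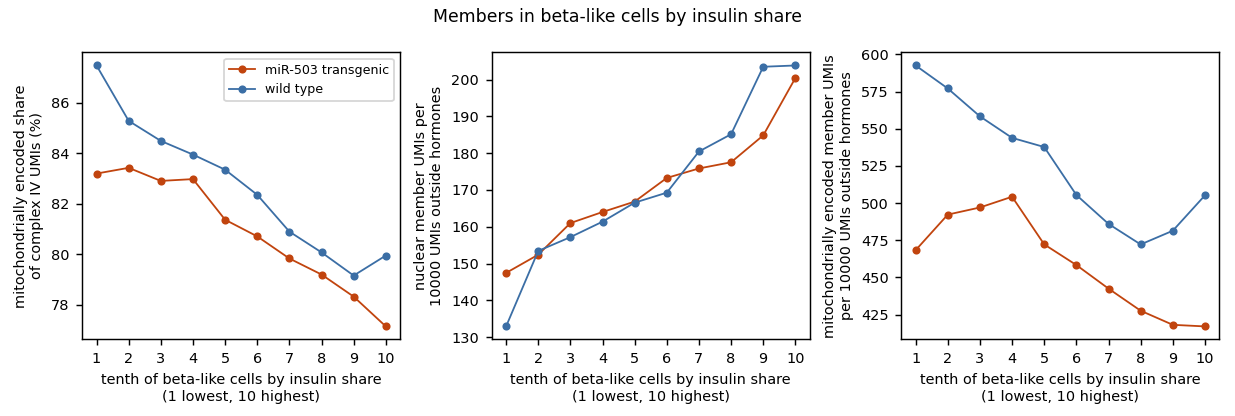
Beta-like cells in 10 bins by the share of their UMIs from insulin, low bins at left, for the transgenic library (orange) and the wild type library (blue), on axes that do not start at 0: mitochondrially encoded share of complex IV UMIs in percent, nuclear members and mitochondrially encoded members as UMIs per 10000 outside the hormone genes. The transgenic points lie below the wild type points in 10 of 10 bins for the complex IV share and the mitochondrially encoded members, and above in 5 and below in 5 for the nuclear members.

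In alpha-like cells the nuclear members showed no such lean. Of 42 tested, 15 stood above and 27 below 0, with a median of −0.04, beside 0.01 for all genes. None was called higher, against 11.0% of 7925 genes, and 1 was called lower, against 8.14%: Atp5sl, with levels of 6.48 transgenic and 9.55 wild type on 62 and 61 UMIs, at −0.56 (−1.09 to −0.03). Of the 6 mitochondrial members 5 lay below 0, with a median of −0.10, and mt-Atp8 lay at 0.07. In delta-like cells 2 members were called higher, against 11.2% of 3388 genes, and mt-Atp8 lower, against 7.91%, at −0.39 (−0.92 to 0.16). The 2 were Uqcrc1, with 55.7 and 34.03, at 0.71 (0.23 to 1.22), and Cyc1, with 40.2 and 29.7, at 0.44 (−0.10 to 0.997). In gamma-like cells 3 members were called higher, against 10.4% of 3137 genes, Sdhd at 0.46 (0.08 to 0.84), Uqcrc1 at 0.40 and Cyc1 at 0.36, the intervals of the last 2 including 0, and none was called lower, against 9.63%. Uqcrc1 and Cyc1 stood above 0 in all 4 classes, with Uqcrc1 at 0.28 (0.06 to 0.51) and Cyc1 at 0.11 (−0.14 to 0.35) in alpha-like cells. For the delta-like class the nuclear median was 0.02 and the mitochondrial median −0.05, and for the gamma-like class they were 0.05 and −0.17. The members called higher were 2 of 40 nuclear members tested in delta-like cells (5%) and 3 of 39 in gamma-like cells (7.69%), below the shares of all genes. In delta-like cells mt-Atp8 was 1 of 6 mitochondrial members (16.7%), above the share of all genes, with an interval that includes 0. Depth in these classes is low.

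Genes that work with the complexes were listed apart, with TMM scaling over all beta-like cells. Total UMIs lower each of their beta-like ratios by 0.34, so the counts above and below 0 depend on the scaling. Their values in insulin-matched cells are not given here. Of 32 assembly factors with at least 100 UMIs in beta-like cells, 23 stood above and 9 below 0, with a median of 0.09; 3 were called higher, Sco2, a copper chaperone of complex IV, and Atpif1, the ATP synthase inhibitor, both at 0.33, and Taco1, a translation factor for mt-Co1, at 0.59 on 70 transgenic and 59 wild type UMIs, and 1 lower, Coa5, at −0.42. Of 13 genes of the tricarboxylic acid cycle, which holds complex II, 8 stood above and 5 below 0, with Fh1, fumarase, called higher at 0.43 and Ogdh, a subunit of 2-oxoglutarate dehydrogenase, lower at −0.37. Of 14 genes of mitochondrial biogenesis and mitochondrial DNA transcription, 8 stood above and 6 below 0. Among them Lrpprc, which stabilises mitochondrial mRNAs, had levels of 19.8 transgenic and 30.4 wild type, at −0.62 (−0.73 to −0.51), Ppargc1a, a coactivator of respiratory genes, 12.0 and 17.1, at −0.50 (−0.64 to −0.36), and the transcription factor Nrf1 12.4 and 16.9, at −0.45 (−0.59 to −0.31). These 3 were called lower, and Ppargc1b, at 0.37 (−0.06 to 0.80) on 93 and 91 UMIs, higher. Tfam, which packages mitochondrial DNA, stood at 0.07 and Slirp, the partner of Lrpprc, at 0.13. For complex I, nuclear genes were listed by symbols beginning Nduf, without Ndufaf. Of these, 34 of 38 stood above 0, with a median of 0.18 as over the nuclear members. Of the 38, 9 were called higher (23.7%) and 2 lower (5.26%), and 7 of 7 mitochondrial complex I genes stood below 0. The symbols brought in Ndufa4 and Ndufa4l2, which are not complex I subunits. Ndufa4 stood at −0.10, and Ndufa4l2 was called lower at −0.46 (−0.97 to 0.05) on 53 transgenic and 92 wild type UMIs. Beside the 11.2% of all genes called higher and 12.3% called lower in beta-like cells, the shares were 9.38% and 3.12% of the assembly factors, 7.69% and 7.69% of the tricarboxylic acid cycle and 7.14% and 21.4% of the biogenesis genes. In alpha-like cells the assembly factors stood 9 above and 15 below 0, and the listed Nduf genes 19 above and 18 below with none called. The tricarboxylic acid cycle genes stood 6 above and 7 below there. Of 9 biogenesis genes tested in alpha-like cells, 3 stood above and 6 below 0, with 1 called higher (11.1%) and 2 lower (22.2%). Of all genes, 11.0% were called higher and 8.14% lower there, so the share of biogenesis genes called lower was similar in alpha- and beta-like cells.

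Markers of other cells moved between the libraries. In beta-like cells the summed level of macrophage markers, 6 of 6 detected, was 90.1 transgenic and 61.6 wild type, with Lyz2 at 1780.0 and 299 UMIs. Without Lyz2 the sum was 56.5 and 57.1, and 4 of the other 5 markers were lower in transgenic cells. Acinar markers summed to 76.3 and 23.2 in beta-like, 57.2 and 8.69 in delta-like and 94.9 and 11.1 in gamma-like cells, and T cell markers in beta-like cells to 3.59 and 0.134. B cell markers summed to 92.3 and 78.3 in beta-like cells, where Cd79b had 125 and 30 UMIs and Ms4a1 101 and 16. Endothelial markers summed to 13.95 and 23.5, and stellate markers to 1.81 and 4.93, with Col1a1 at 0 in transgenic cells. In alpha-like cells the macrophage sums were 86.0 and 89.4 and the acinar sums 79.8 and 46.5. Their part in the members' values was not tested.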

How the data were processed

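Single islet cells were counted with 10x Chromium 3′ v2 chemistry. The deposited values are UMI counts per gene and barcode, made by the authors with Cell Ranger 2.1.0 and STAR 2.5.1b on mm10, per the submitters' processing notes; no normalization is recorded. Cells needed at least 500 genes, 1000 UMIs and at most 10% mitochondrial UMIs, which left out 15 transgenic and 20 wild type barcodes. Scrublet (scanpy 1.11.5) called 17 and 5 doublets, under 0.5% of cells, so the caller had not worked, and the 4% of barcodes with the highest scores were removed instead, 166 and 181. Classes needed 10% of UMIs from insulin or 2% from Gcg, Sst or Ppy, and 70% of hormone UMIs from that hormone. For delta-like cells the last limit was lowered to 50% after the data were seen, because 70% left 34 wild type cells, under the minimum of 50. Cells with 60% to 80% dominance numbered 146 transgenic and 90 wild type alpha-like, 12 and 29 beta-like, 88 and 48 delta-like, and 26 and 38 gamma-like. UMIs were summed by class and library and scaled by TMM (edgeR 4.0.16, R 4.3.3). Ratios have exact conditional binomial and shares exact Clopper-Pearson 95% intervals. Class sums ranged between 920118 UMIs (wild type delta-like) and 83993231 (wild type beta-like). The scripts were tested on simulated data. Genes were named where they were called, where they are tissue forms or where they hold a main role in their complex. The members, lists and limits were chosen with earlier results of these data known.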

Additional observations from a re-analysis of the deposited data

Results flagged for a closer look

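In 5 members the transgenic over wild type log2 ratio pointed in opposite directions in beta-like and alpha-like cells, with both intervals clear of 0; the difference itself was not tested, since there is 1 library for each genotype. Cox7c stood at 0.33 in beta-like and −0.13 in alpha-like cells. Cox4i1 stood at 0.18 and −0.11, Atp5g2 at 0.22 and −0.10, Uqcrh at 0.14 and −0.19, and Atp5e at 0.14 and −0.052. The opposition depends on the TMM scaling: under total UMIs all 5 stood below 0 in both classes, Cox7c at −0.0082 in beta-like and −0.11 in alpha-like cells, Cox4i1 at −0.16 and −0.082, Atp5g2 at −0.12 and −0.074, Uqcrh at −0.20 and −0.16, and Atp5e at −0.20 and −0.028.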

How the results depend on the processing

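No paired analysis was possible because each genotype has 1 library, and for the same reason no replicate could be left out. Total UMIs in place of TMM turned the sign of Cox7c in beta-like cells (−0.0082), of transgenic mt-Cytb and mt-Co3 in alpha-like over beta-like cells (0.021 and 0.061), and of transgenic mt-Cytb, mt-Atp6, Uqcrq and Atp5e in delta-like over beta-like cells (0.19, 0.17, 0.49 and 0.36). Nuclear members called higher in transgenic beta-like cells numbered 6, against 0 under total UMIs, 3 with at most 5% mitochondrial UMIs and 1 with insulin-matched cells. Mitochondrial members called lower numbered 1, against 6 under total UMIs and 0 under DESeq2 1.42.0 size factors, the 5% limit and insulin matching. The complex IV mitochondrial share in beta-like cells differed by −4.20 points, by −3.06 under the 5% limit, by −4.05 in cells with Y-linked and no Xist UMIs, and by −1.77 with insulin-matched cells. Members called between genotypes in alpha-like cells numbered 1, against 2 with non-hormone UMIs, with at least 50 UMIs and with 50% dominance, 3 with 90% dominance, 6 with no minimum and 0 in the cells with Y-linked and no Xist UMIs. Members called higher in alpha-like than beta-like cells numbered 1, against 19 under total UMIs, 2 with no minimum and with 90% dominance, and 0 with non-hormone UMIs and with 50% dominance; those called lower numbered 6, and 1 under total UMIs. In delta-like cells 0 were called higher, against 28 under total UMIs and 1 under non-hormone UMIs, DESeq2 size factors, no minimum, no mitochondrial limit, an equal-weight mean over cells and the cells with Y-linked and no Xist UMIs; 9 were called lower, and 1 under total UMIs. In gamma-like cells 0 were called higher, against 2 under total UMIs and 1 with no minimum, and 9 lower, against 2 under total UMIs. The Cox6a2 share in wild type delta-like minus beta-like cells was −12.8 points, and −11.4 with an equal-weight mean. Matching cells on non-hormone UMIs moved none of 30 results. At 90% dominance the delta- and gamma-like classes held too few cells to give values. A change of scaling shifts the ratios of all genes in a class alike. The share of all genes called under each alternative setting is not given here, so these counts are not read as results about the members. The cause of these changes was not tested. The delta-like limit of 50%, and its alternative of 70%, were chosen after the data were seen.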
